A study of Mus musculus with 16 samples.

Results

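Interferon gamma is encoded by Ifng, its receptor chains by Ifngr1 and Ifngr2, and the chains of the type I interferon receptor by Ifnar1 and Ifnar2. These 5 genes were taken by name from the 31053 features of single-cell RNA-seq matrices, and all 5 were present. The cells were live CD45+ leukocytes sorted from subcutaneous tumors in the right flank of C57BL/6J mice, in 16 libraries. The implanted lines were MC38, from a mouse colorectal carcinoma, and Panc02-SIY, from a mouse pancreatic adenocarcinoma and carrying the model antigen SIY. For each line, 4 libraries came from untreated tumors (MC38 NT, Panc02-SIY NT) and 4 from tumors harvested 24 h after a single 12 Gy dose of CT-guided radiation (MC38 RT, Panc02-SIY RT). No host genotype other than the strain is given for these libraries, and all tumors were implanted lines. The questions addressed here were which cell classes contained Ifng transcripts, which contained transcripts of either receptor, and how these levels differed with radiation and between the tumors.

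Interferon gamma is the type II interferon, secreted mainly by activated T cells and NK cells. It binds a receptor made of IFNGR1, the ligand-binding chain, and IFNGR2, the chain required for signaling, which carry the kinases JAK1 and JAK2. In macrophages this signal raises antigen presentation, the chemokines Cxcl9 and Cxcl10 and the checkpoint ligand Cd274 (PD-L1). The type I interferons, the alpha and beta families, bind IFNAR1 and IFNAR2, which carry TYK2 and JAK1 and act through a complex that holds STAT2 and IRF9.

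In the mm10 annotation (GENCODE vM21) Ifng lies on the plus strand of chromosome 10 at chr10:118441046-118445892 with 4 exons, and Ifngr1 on the same chromosome at chr10:19591949-19610229 with 7 exons. The other 3 genes lie within 192.84 kb of chromosome 16, in the order Ifnar2 (chr16:91372783-91405589, 9 exons), Ifnar1 (chr16:91485238-91507441, 13 exons) and Ifngr2 (chr16:91547072-91565623, 7 exons), all on the plus strand. Ifnar2 overlaps a predicted gene counted on the same strand (Gm21970), so its counts are less certain than those of the other members.

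The 250 bases before the RefSeq start of Ifng and of both interferon gamma receptor chains (GRCm38.p6) are printed because their transcripts were distributed differently over the cell classes. Capitals mark TATAAA, a start-site element of tightly regulated genes, and GGGCGG, the site of Sp1, on either strand.
Ifng, chr10:118440796-118441045: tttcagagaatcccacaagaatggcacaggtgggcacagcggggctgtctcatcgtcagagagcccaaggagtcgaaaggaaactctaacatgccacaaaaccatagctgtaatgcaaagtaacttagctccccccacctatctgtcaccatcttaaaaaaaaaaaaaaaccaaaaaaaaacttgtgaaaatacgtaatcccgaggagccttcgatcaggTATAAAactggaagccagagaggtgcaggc
Ifngr1, chr10:19591699-19591948: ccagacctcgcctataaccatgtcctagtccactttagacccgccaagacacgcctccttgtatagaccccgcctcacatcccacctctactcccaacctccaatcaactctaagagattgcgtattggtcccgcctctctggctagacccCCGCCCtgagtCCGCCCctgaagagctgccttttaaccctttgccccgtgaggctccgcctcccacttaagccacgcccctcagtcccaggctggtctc
Ifngr2, chr16:91546809-91547058: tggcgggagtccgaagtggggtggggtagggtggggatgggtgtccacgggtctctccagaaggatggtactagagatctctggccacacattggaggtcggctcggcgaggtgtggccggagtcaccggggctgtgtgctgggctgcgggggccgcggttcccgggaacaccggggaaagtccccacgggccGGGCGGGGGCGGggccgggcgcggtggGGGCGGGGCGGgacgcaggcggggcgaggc
The window of Ifng held 1 TATAAA, without a match to GGGCGG, and 45.2% of its bases were G or C. The windows of the receptor chains were richer in G and C, at 59.2% for Ifngr1 and 74.0% for Ifngr2, and held 2 and 4 GGGCGG without a TATAAA. Those of Ifnar1 (65.6% G or C, 2 GGGCGG) and Ifnar2 (54.0%) had no TATAAA either. Over 32851 RefSeq promoter windows of the same length the median G or C content was 52.4%, and TATAAA was found in 12.4% and GGGCGG in 32.7%. GGTGTGA (the core bound by T-box factors, 3.33% of windows) and the core of the interferon-stimulated response element (2.98%) matched none of the 5 windows, and GGAAGT (an ETS core, 19.7%) matched only that of Ifnar1. The motifs can overlap each other, and a match is a description of letters.

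The deposited libraries held 3240877 to 10121198 UMIs for MC38 and 5327146 to 43776342 for Panc02-SIY. The MC38 libraries shared most of their cell barcodes (a median of 83.3% between 2 libraries, against 5.54% for Panc02-SIY), so a barcode found in several libraries of a tumor was assigned to the one where it had most UMIs. That left 20768 of 28678 barcodes: 2632 of 9843 for MC38, with 76.7% of the UMIs, and 18136 of 18835 for Panc02-SIY, with 99.6%. Many of the tests of radiation and between tumors that rest on MC38 are given also with all barcodes left in every library. So are the differences between its NK cell-like and macrophage-like barcodes, and other MC38 values are given only in the first way. With all barcodes left, the same barcode can count in several MC38 libraries. Those libraries are then not independent, so the p-values of that setting can be too small and are no separate evidence. The first way has a limit too: 1239 of the 2632 kept MC38 barcodes (47.1%) were also found in another MC38 library. When shared, a median of 76.4% of UMIs lay in the richest library. The kept share of UMIs ran from 42.8% in MC38 RT replicate 1 to 86.4% in MC38 NT replicate 4. The library, and so the treatment, of a shared MC38 barcode can therefore be uncertain. Ptprc, which encodes CD45, stood at 422 to 2091 CPM in the libraries, where CPM is the UMI count of a gene scaled to 1e6 UMIs, and a class of 715 barcodes with stromal or epithelial markers was called non-immune-like. Barcodes were clustered without the 5 members and the genes of their pathway, and clusters were named from marker genes. This gave 6047 CD8 T cell-like, 554 CD4 T cell-like, 465 regulatory T cell-like, 2355 NK cell-like, 5183 macrophage-like, 869 monocyte-like, 1914 neutrophil-like and 453 dendritic cell (DC)-like barcodes. Smaller classes were mature regulatory DC (mregDC)-like, B or plasma cell-like and mast cell or basophil-like, and 1749 barcodes stayed unnamed. The CD4 T cell-like cluster was led by Csf2, Il13 and Gata3, which are not among its naming markers (Cd4, Cd40lg, Tnfsf8, Icos, Il21, Cd3e and Trac). Its values may therefore not stand for CD4 T cells as a whole. MC38 contributed 107 CD8 T cell-like, 273 NK cell-like and 1660 macrophage-like barcodes. A level below is the CPM of a gene within a class of a library with at least 10 barcodes of that class, and the mean ± SD is over libraries.

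Among the named classes, Ifng was concentrated in CD8 T cell-like and NK cell-like barcodes in both tumors. In Panc02-SIY, CD8 T cell-like barcodes held 526, 528, 493 and 342 CPM of Ifng in the 4 untreated libraries and 425, 938, 531 and 501 in the 4 irradiated ones. The range of the treated libraries covered that of the untreated ones except for 1 untreated library below it. NK cell-like barcodes held 287, 312, 259 and 162 CPM untreated and 509.8, 424, 331 and 208 irradiated. Over the 8 Panc02-SIY libraries the order of Ifng was CD8 T cell-like (536 ± 175 CPM), NK cell-like (312 ± 113), CD4 T cell-like (276 ± 288), regulatory T cell-like (85.2 ± 58.6), DC-like (25.8 ± 38.1), monocyte-like (22.7 ± 35.6), macrophage-like (21.7 ± 25.4), neutrophil-like (13.1 ± 7.9), B or plasma cell-like (11.4) and non-immune-like (4.39). In 3 of these classes 1 library set the mean. Without Panc02-SIY NT replicate 1 (116.4 CPM) DC-like barcodes held 12.9 ± 11.2 CPM, without Panc02-SIY NT replicate 2 (109 CPM) monocyte-like ones held 10.4 ± 7.53, and without Panc02-SIY RT replicate 4 (83.5 CPM) macrophage-like ones held 12.9 ± 4.78 (n = 7 libraries each). B or plasma cell-like barcodes held 7.33 CPM without Panc02-SIY NT replicate 2. Of the neighbours in this order, CD8 T cell-like differed from NK cell-like and regulatory T cell-like from DC-like at an adjusted p under 0.1 in an exact sign-flip permutation test of log2(CPM + 10), and the other neighbours did not. Over the 5 members and both tumors 23 of 55 neighbouring pairs passed, and mregDC-like barcodes were in too few libraries to enter. In the log2(CPM + 10) scale Ifng was 4.29 higher in CD8 T cell-like than in macrophage-like barcodes and 3.51 higher in NK cell-like than in macrophage-like barcodes, each in 8 of 8 libraries (exact two-sided p = 0.0078, the smallest that 8 pairs allow, and 0.011 adjusted over 35 class pairs). NK cell-like barcodes were 0.79 below CD8 T cell-like ones and higher in 1 of 8 libraries (exact p = 0.016, adjusted 0.022).

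In MC38 the few CD8 T cell-like barcodes held 784 ± 405 CPM of Ifng (n = 5 libraries), and NK cell-like ones 366 ± 278 (n = 8). NK cell-like barcodes held 171, 83.3, 79.6 and 341 CPM in the untreated libraries and 878, 271, 528 and 575 in the irradiated ones, so that 1 untreated library lay above 1 irradiated library. Macrophage-like barcodes of MC38 held 2.71 ± 2.30 CPM. Ifng was 4.50 higher in NK cell-like than in macrophage-like barcodes on the log2(CPM + 10) scale in 8 of 8 libraries (exact p = 0.0078), and 4.65 higher with all barcodes left in every library (exact p = 0.0078). Most other MC38 classes held fewer than 10 barcodes in most libraries. CD4 T cell-like barcodes reached 10 only in MC38 RT replicate 3, with 556 CPM of Ifng from 33 UMIs in 11 barcodes. DC-like barcodes held 0 CPM in MC38 NT replicates 3 and 4, and 2.78 and 9.18 in MC38 RT replicates 3 and 4. Non-immune-like barcodes held 32.6 ± 33.4 CPM (n = 7 libraries), with an Ifng UMI in 2 of 125 untreated and 3 of 71 irradiated barcodes.

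**Figure D1:**
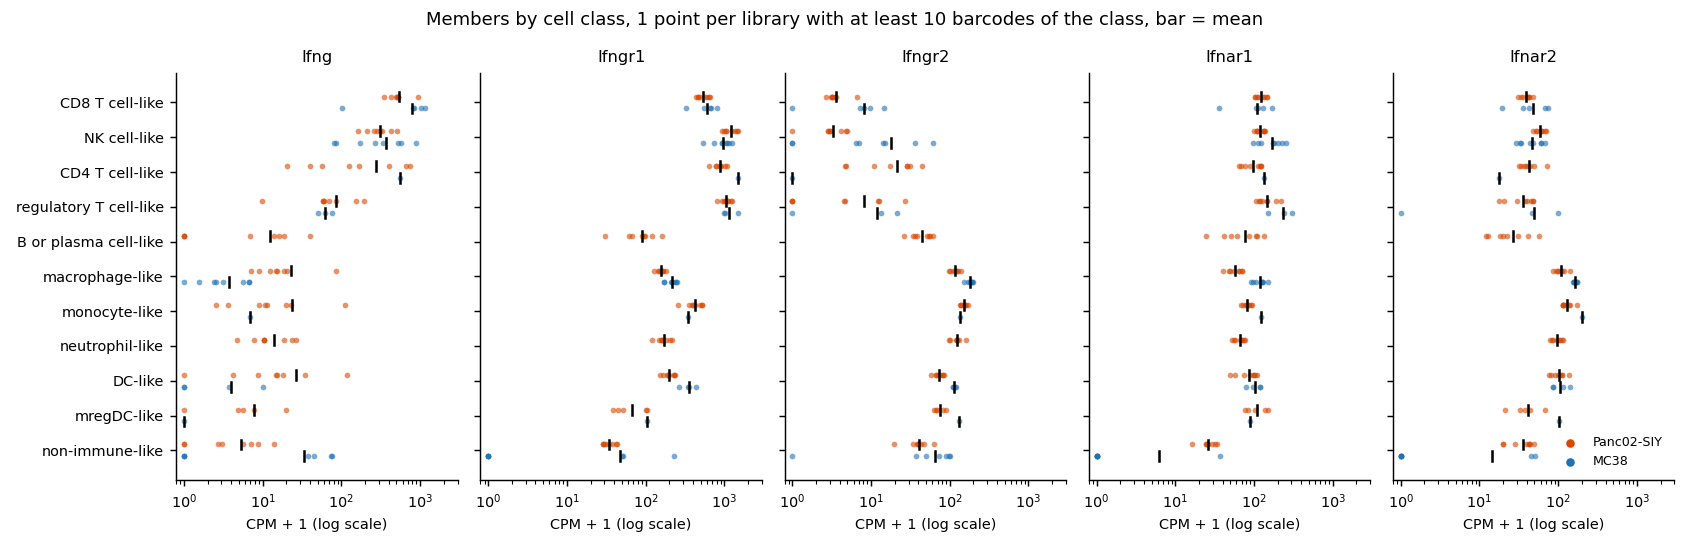
Levels of the 5 genes by cell class, in CPM + 1 on a log axis, with 1 point per library that held at least 10 barcodes of the class (orange Panc02-SIY, blue MC38) and a bar at the mean. Ifng is high in the lymphocyte classes at the top, Ifngr1 is high in the same rows and in monocyte-like barcodes, and Ifngr2 is high in the myeloid rows and near the axis in CD8 T cell-like and NK cell-like barcodes.

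These classes also supplied most of the Ifng UMIs of a library, in unequal shares in the 2 tumors. CD8 T cell-like barcodes made up 4.16% of MC38 NT, 4.05% of MC38 RT, 36.1% of Panc02-SIY NT and 27.3% of Panc02-SIY RT barcodes on average. They held 63.2% ± 21.5, 57.0% ± 11.8, 84.7% ± 3.15 and 68.7% ± 17.2 of the Ifng UMIs in the same groups (n = 4 each). NK cell-like barcodes held 26.3% ± 22.3, 30.8% ± 4.42, 8.02% ± 4.46 and 21.0% ± 18.1 of the Ifng UMIs. Macrophage-like barcodes, 63.4% and 60.7% of MC38 NT and MC38 RT barcodes, held 3.09% and 6.05% of the Ifng UMIs there. Shares of sorted leukocytes depend on the sort, and in these sums fewer cells of a class and less RNA per cell cannot be told apart.

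**Figure D2:**
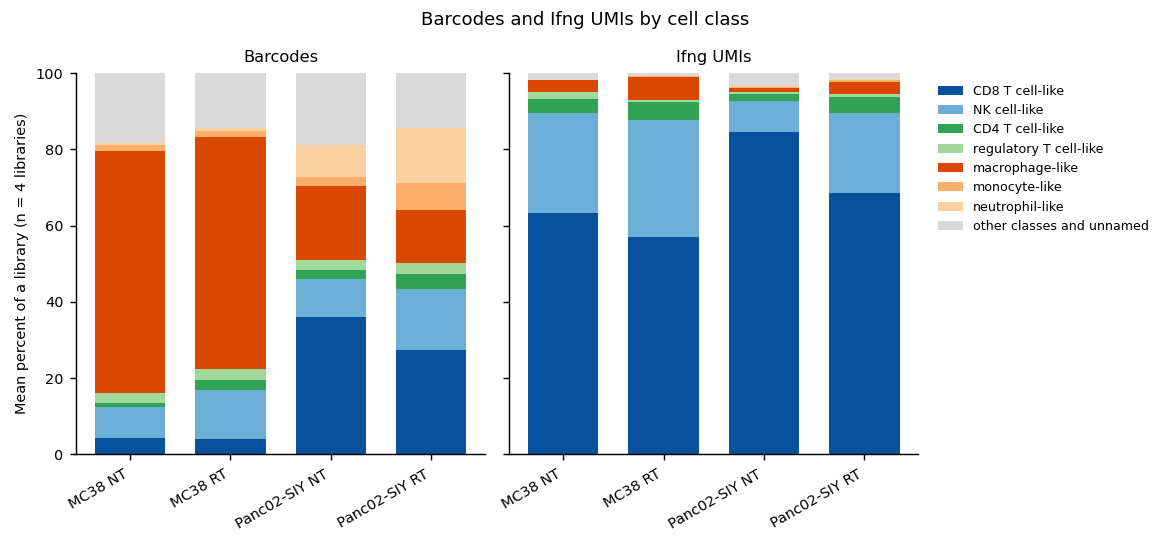
Mean percent of a library (n = 4 libraries per group) by cell class, for barcodes on the left and for Ifng UMIs on the right. Macrophage-like barcodes fill 63.4% of the MC38 NT bar on the left and 3.09% on the right, and CD8 T cell-like with NK cell-like barcodes fill most of each bar on the right.

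A small number of barcodes held much of the Ifng of all CD45+ cells. Of 9405 Panc02-SIY NT barcodes, 317 held 50% or more of the 18192 Ifng UMIs, and in Panc02-SIY RT 184 of 8731 did so for 15237 UMIs. In MC38 NT 6 of 1327 barcodes and in MC38 RT 9 of 1305 barcodes held that share of only 476 and 1056 UMIs. Barcodes with at least 10 Ifng UMIs held 61.8% and 66.0% of the Ifng UMIs of CD8 T cell-like barcodes in Panc02-SIY NT and Panc02-SIY RT. In NK cell-like barcodes they held 25.6% and 29.9% there, and 9.35% and 64.7% in MC38 NT and MC38 RT. Of CD8 T cell-like barcodes in Panc02-SIY, 69.1% ± 5.10 untreated and 58.7% ± 8.32 irradiated had at least 1 Ifng UMI (n = 4 libraries each, at a median of 8486 and 6279 UMIs per barcode). When every barcode was thinned to 1000 UMIs these shares were 27.9% ± 5.44 and 26.5% ± 7.02. NK cell-like barcodes gave 49.3% ± 6.94 and 49.6% ± 7.76 at full depth, and 21.0% and 24.7% thinned. CD4 T cell-like ones gave 8.56% ± 12.3 and 11.3% ± 9.49 thinned. The unnamed barcodes of Panc02-SIY gave 13.3% ± 1.28 and 11.3% ± 6.50 at full depth, and 9.45% ± 2.44 and 9.05% ± 5.20 thinned. Only 508 of 1084 and 227 of 576 unnamed barcodes had enough UMIs to be thinned. Neutrophil-like barcodes, given for comparison because droplets can hold free RNA, gave 2.09% and 2.26% at full depth (medians of 2492 and 2154 UMIs) and 0.737% and 0.683% thinned. Non-immune-like barcodes of Panc02-SIY, at medians of 8695.5 and 3374 UMIs, gave 9.52% ± 8.51 and 2.36% ± 2.94 at full depth, and 0.0% and 0.333% thinned. B or plasma cell-like ones gave 9.42% ± 10.8 and 1.88% ± 2.44 at full depth, and 0.0% and 0.625% thinned. Macrophage-like barcodes of Panc02-SIY gave 5.22% and 3.67% at full depth and 1.39% and 0.915% thinned. T cell markers (7 genes, none at 0) summed to 139 to 506 CPM in those macrophage-like barcodes and to 11 to 60 CPM in the macrophage-like barcodes of MC38, whose Ifng was lower. The part of these markers in the macrophage values was not tested. In Panc02-SIY RT, 2 macrophage-like barcodes held 50% or more of the 654 Ifng UMIs of that class.

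Among CD8 T cell-like barcodes of Panc02-SIY the level of Ifng differed between the 3 clusters. The cluster with 59.7% of the class untreated and 61.4% irradiated held 580 ± 199 and 822 ± 350 CPM. A cluster led by cell cycle genes held 447 ± 21 and 566 ± 69 CPM (n = 4 and 3 libraries) and made up 19.7% and 8.41% of the class. The third cluster held 197 ± 66 and 194 ± 82 CPM and made up 20.6% and 30.1% of the class. These values are a description, with no test between clusters or of their shares.

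The chains of the interferon gamma receptor were distributed over the classes in different orders. Ifngr1, the ligand-binding chain, was high in lymphocytes that also held Ifng. Over the Panc02-SIY libraries its order was NK cell-like (1207 ± 220 CPM), regulatory T cell-like (1057 ± 147), CD4 T cell-like (873 ± 137), CD8 T cell-like (541 ± 87), monocyte-like (419 ± 91), DC-like (197 ± 31), neutrophil-like (168 ± 32), macrophage-like (155 ± 16), B or plasma cell-like (90.4), mregDC-like (67.3) and non-immune-like (33.7). Neighbours differed from regulatory T cell-like to CD4 T cell-like to CD8 T cell-like, from monocyte-like to DC-like and from macrophage-like to B or plasma cell-like to non-immune-like, and no other neighbours did. Compared with macrophage-like barcodes Ifngr1 was 2.87 higher in NK cell-like, 1.73 higher in CD8 T cell-like, 1.36 higher in monocyte-like and 0.32 higher in DC-like barcodes on the log2(CPM + 10) scale (exact p = 0.0078 each, adjusted 0.011). In MC38, NK cell-like barcodes held 960.3 ± 231 CPM and macrophage-like ones 214 ± 29.8, a difference of 2.09 in 8 of 8 libraries, and 2.10 with all barcodes left in every library (exact p = 0.0078 for both).

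Ifngr2, the signaling chain, was high in myeloid classes and close to 0 in CD8 T cell-like and NK cell-like barcodes. In Panc02-SIY it stood at 149.8 ± 12.4 CPM in monocyte-like, 121 ± 18.5 in neutrophil-like, 116 ± 14.1 in macrophage-like, 73.3 in mregDC-like, 71.9 ± 8.5 in DC-like, 44.0 in B or plasma cell-like and 39.5 in non-immune-like barcodes. T cell-like and NK cell-like classes followed, with 20.4 ± 14.2 in CD4 T cell-like, 7.04 ± 9.08 in regulatory T cell-like, 2.64 ± 1.23 in CD8 T cell-like and 2.33 ± 1.29 in NK cell-like barcodes. Neighbours differed from monocyte-like to neutrophil-like, from macrophage-like to DC-like to B or plasma cell-like, and from non-immune-like to CD4 T cell-like to regulatory T cell-like barcodes, and no others did. The CD8 T cell-like value rests on 135 UMIs in 5940 barcodes and the NK cell-like value on 27 UMIs in 2082 barcodes. In the 8 libraries Ifngr2 spanned 1.70 to 5.62 CPM in CD8 T cell-like and 0 to 3.94 in NK cell-like barcodes, and 97.2 to 139 in macrophage-like barcodes, with no overlap. Relative to macrophage-like barcodes it was 3.36 lower in NK cell-like and 3.32 lower in CD8 T cell-like barcodes on the log2(CPM + 10) scale, in 8 of 8 libraries (exact p = 0.0078, adjusted 0.011). NK cell-like and CD8 T cell-like barcodes differed by 0.04 (adjusted exact p = 0.69), and CD8 T cell-like barcodes were 1.11 below CD4 T cell-like ones.

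At least 1 Ifngr2 UMI was seen in 1.98% of CD8 T cell-like barcodes of Panc02-SIY NT (exact 95% interval 1.54 to 2.51, counting error only) and in 1.45% of NK cell-like ones (0.727 to 2.58), against 67.0% of monocyte-like barcodes. The median barcode held 8486 UMIs in the CD8 T cell-like class and 1989.5 in the macrophage-like class, where 33.2% had an Ifngr2 UMI. Thinned to 1000 UMIs per barcode, the shares in Panc02-SIY RT were 0.354% in CD8 T cell-like, 0.0776% in NK cell-like, 12.4% in monocyte-like and 10.6% in macrophage-like barcodes. Ifngr1 was seen in 93.5% of CD8 T cell-like and 95.3% of NK cell-like barcodes of Panc02-SIY NT. In MC38 Ifngr2 was 181 ± 15.1 CPM in macrophage-like and 16.7 ± 20.7 in NK cell-like barcodes, the latter from 18 UMIs. That was 3.16 lower in NK cell-like barcodes (0 of 8 libraries higher, exact p = 0.0078), and 3.18 lower with all barcodes left in every library (exact p = 0.0078). Macrophage markers (8 genes, none at 0) summed to 609 to 1430 CPM in MC38 NK cell-like barcodes and to 29 to 223 CPM in Panc02-SIY ones, beside the higher Ifngr2 of the MC38 class; their part in it was not tested.

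**Figure D3:**
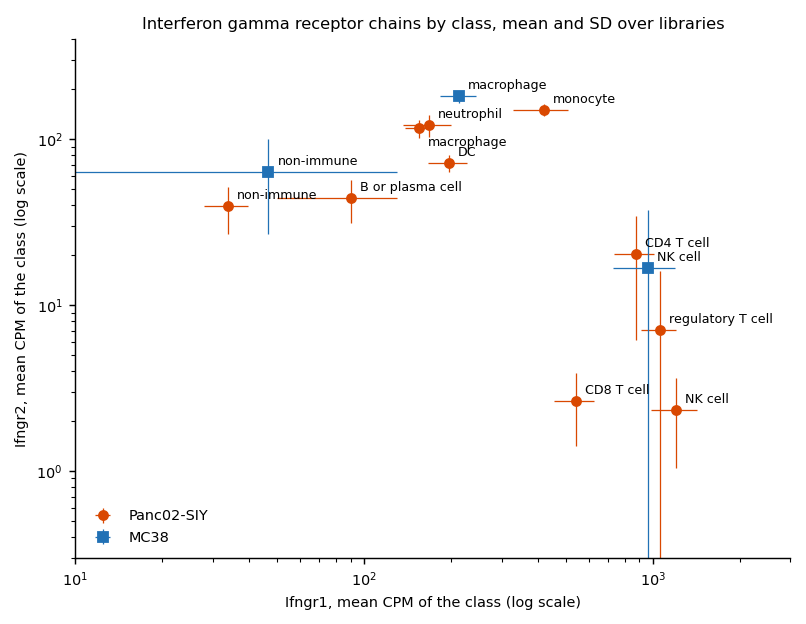
Mean CPM of Ifngr1 (x axis) and Ifngr2 (y axis) by cell class on log axes, with SD over libraries, for classes with at least 6 libraries (circles Panc02-SIY, squares MC38); an SD that would reach 0 is drawn to the axis. CD8 T cell-like and NK cell-like barcodes of Panc02-SIY sit at the lower right, at 541 and 1207 CPM of Ifngr1 and 2.64 and 2.33 CPM of Ifngr2, and the myeloid classes sit at the top.

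The chains of the type I receptor differed less between classes. In Panc02-SIY Ifnar1 was 145.9 CPM in regulatory T cell-like, 122 ± 18.3 in CD8 T cell-like, 120.1 ± 15.2 in NK cell-like, 109.5 in mregDC-like, 96.4 in CD4 T cell-like, 84.4 in DC-like, 81.6 in monocyte-like, 76.3 in B or plasma cell-like, 64.9 in neutrophil-like, 56.9 ± 11.1 in macrophage-like and 25.4 in non-immune-like barcodes. Of these neighbours only macrophage-like and non-immune-like barcodes differed. Ifnar1 was 0.97 higher in NK cell-like and 0.99 higher in CD8 T cell-like than in macrophage-like barcodes on the log2(CPM + 10) scale (exact p = 0.0078 each, adjusted 0.011). In MC38 the difference between NK cell-like (170.5 ± 57 CPM) and macrophage-like barcodes (119 ± 19.2) was 0.44, with NK cell-like barcodes higher in 5 of 8 libraries (exact p = 0.062). Adjusted, this was 0.078 over the 35 class pairs, under the threshold of 0.1, and 0.13 over the 55 neighbouring pairs, above it. With all barcodes left in every library the difference was 0.31 (exact p = 0.062).

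Ifnar2 was higher in most myeloid classes than in the lymphocyte classes. In Panc02-SIY it was 128 ± 20.7 CPM in monocyte-like, 107 ± 17 in macrophage-like, 101 in DC-like, 96.5 in neutrophil-like, 58.4 ± 7.6 in NK cell-like, 42.2 in CD4 T cell-like, 39.9 in mregDC-like, 38.5 ± 5.5 in CD8 T cell-like, 34.7 in regulatory T cell-like and non-immune-like, and 25.8 in B or plasma cell-like barcodes. Neighbours differed from monocyte-like to macrophage-like and from neutrophil-like to NK cell-like to CD4 T cell-like barcodes. Ifnar2 was 0.77 lower in NK cell-like and 1.26 lower in CD8 T cell-like than in macrophage-like barcodes (log2(CPM + 10) scale, exact p = 0.0078, adjusted 0.011). In MC38 NK cell-like barcodes (46.1 ± 14.6 CPM) were 1.67 below macrophage-like ones (163 ± 7.66) in 8 of 8 libraries, and 1.56 below with all barcodes left in every library (exact p = 0.0078 for both). In Panc02-SIY, then, each receptor had a chain that was higher in NK cell-like than in macrophage-like barcodes (Ifngr1 and Ifnar1) and a chain that was lower (Ifngr2 and Ifnar2). In MC38 this held for Ifngr1, Ifngr2 and Ifnar2, and for Ifnar1 it depended on the family of pairs the p was adjusted over.

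Over 35 means of a class in a group, Ifng and Ifngr1 had a Pearson correlation of 0.69, Ifng and Ifngr2 of -0.79 and Ifngr1 and Ifngr2 of -0.47 in log2(CPM + 10). Ifngr1 and Ifnar1 had 0.80, Ifngr2 and Ifnar2 0.50 and Ifnar1 and Ifnar2 0.32. Among 10044 genes, those with patterns most like Ifng were Cd96, Klrc1 and Sh2d2a (0.95, 0.95 and 0.93), and those most like Ifngr2 were Gpx1, Spi1 (the myeloid transcription factor PU.1) and Guca1a (0.89, 0.89 and 0.88). For Ifngr1 they were Itpkb, Casp8 and Shisa5 (0.87, 0.87 and 0.86), for Ifnar1 Sirt7, Zufsp and Malt1 (0.88, 0.86 and 0.86), and for Ifnar2 Man2b1, Atp6ap2 and Stard3 (0.86, 0.85 and 0.85). These points share libraries and classes, so the values are descriptions.

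Radiation was compared first in all CD45+ cells of a library, with edgeR's quasi-likelihood test over 12447 genes and a call at a Benjamini-Hochberg adjusted p under 0.1 with a fold over 1.3. In MC38, Ifng was 13.3, 52.3, 6.68 and 23.3 CPM untreated and 184, 27.5, 57.1 and 52.6 irradiated. The groups overlapped, and 1 irradiated library stood far above the other libraries. Ifng rose by 1.79 on the log2 scale (SE 0.60, adjusted p = 0.080). Ifnar1 was 95.1, 97.6, 110.1 and 127 CPM untreated and 153, 128, 125 and 123 irradiated, a rise of 0.38 (SE 0.10, adjusted p = 0.027). Ifngr1, Ifngr2 and Ifnar2 gave 0.08 (95% interval -0.18 to 0.33), -0.04 (-0.30 to 0.22) and 0.06 (-0.10 to 0.23). Thus 2 of 5 members were called, where 11.7% of all genes were. With all barcodes left in every library neither call held: Ifng averaged 31.5 ± 15.3 CPM untreated and 62.0 ± 29.0 irradiated (1.07, adjusted p = 0.15), and Ifnar1 106 ± 11.8 and 116 ± 2.16 (0.23, adjusted p = 0.17). Ifng also lost its call without MC38 RT replicate 1 (1.14, adjusted p = 0.22), which kept only 147 barcodes, and without MC38 NT replicate 1, 3 or 4 or MC38 RT replicate 3 (1.47 to 1.91, adjusted p = 0.11 to 0.175). Ifnar1 fell below the fold limit without MC38 NT replicate 1 or 2 or MC38 RT replicate 1 (0.31 to 0.34).

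In Panc02-SIY, no difference in Ifng was detectable: it was 315, 324, 298 and 169.8 CPM untreated and 225, 448, 247 and 204 irradiated, a change of -0.04 (SE 0.53, 95% interval -1.08 to 0.99, adjusted p = 0.98). Ifngr2 was 30.3, 31.4, 32.8 and 41.0 CPM untreated and 55.4, 45.1, 57.7 and 60.8 irradiated, so the groups did not overlap. It rose by 0.61 (SE 0.13, adjusted p = 0.0063), and in each of the 8 fits without 1 library (0.60 to 0.78). Ifnar2 was 55.0 ± 4.13 CPM untreated and 70.1 ± 3.73 irradiated, without overlap, and was not called because its fold stayed under 1.3 (0.28, adjusted p = 0.034). Ifngr1 (0.30, adjusted p = 0.13) passed only without Panc02-SIY NT replicate 1 or Panc02-SIY RT replicate 4 (both 0.48, adjusted p = 0.020 and 0.014), and Ifnar1 gave 0.15. So 1 of 5 members was called, where 14.7% of all genes were. The make-up of the libraries differed beside this result: monocyte-like barcodes were 2.56% of Panc02-SIY NT and 7.14% of Panc02-SIY RT barcodes, and held 16.8% ± 10.7 and 35.2% ± 8.67 of the Ifngr2 UMIs. Within classes Ifngr2 was not called in Panc02-SIY, with differences of -0.10 in monocyte-like, -0.08 in neutrophil-like and 0.21 in macrophage-like barcodes. The part of the class make-up in the rise was not tested.

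**Figure D4:**
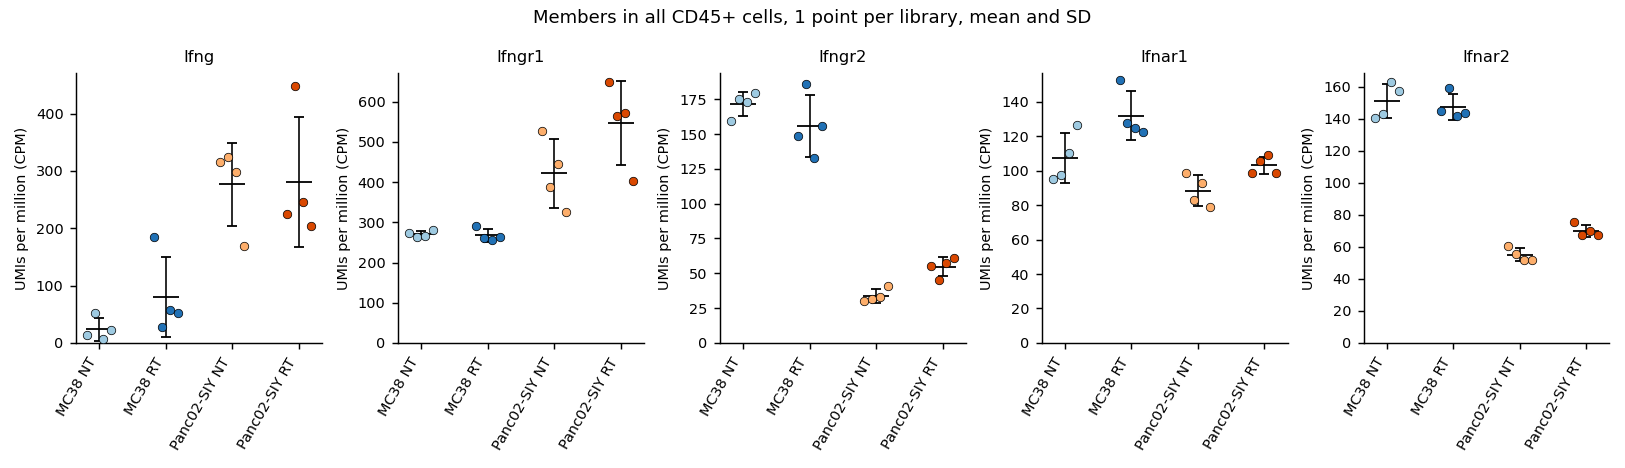
CPM of each gene in all CD45+ cells, 1 point per library, with the mean and SD of the 4 libraries of a group. Ifng lies lower in MC38 NT (6.68 to 52.3 CPM) than in Panc02-SIY NT (169.8 to 324 CPM), Ifngr2 and Ifnar2 lie higher in MC38, and Ifngr2 of the 4 Panc02-SIY RT libraries (45.1 to 60.8 CPM) lies above that of the 4 Panc02-SIY NT libraries (30.3 to 41.0 CPM).

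Between the tumors all 5 members differed in both states, as did 61.1% of all genes between untreated and 58.5% between irradiated tumors. These comparisons share their libraries with those of radiation. In untreated tumors MC38 held less Ifng (log2 difference -3.38, SE 0.61, adjusted p = 0.00023, edgeR) and less Ifngr1 (-0.43), and more Ifngr2 (2.53), Ifnar1 (0.49) and Ifnar2 (1.66). In irradiated tumors the differences were -1.55 for Ifng (SE 0.56, adjusted p = 0.028), -0.66 for Ifngr1, 1.88 for Ifngr2, 0.72 for Ifnar1 and 1.45 for Ifnar2. With all barcodes left in every library they were -2.91 and -1.80 for Ifng, -0.44 and -0.71 for Ifngr1, 2.54 and 1.94 for Ifngr2, 0.51 and 0.58 for Ifnar1 and 1.57 and 1.2996 for Ifnar2, and all were called. Between untreated tumors Ifngr1 lost its call among barcodes with at least 80% of their UMIs in the richest library (-0.23, adjusted p = 0.36), and its fold fell under 1.3 without Panc02-SIY NT replicate 1 (-0.31, adjusted p = 0.045). Ifnar1 fell under that limit when barcodes under 500 genes or over 10% mitochondrial UMIs were left out (0.37, adjusted p = 0.0054). The difference in class make-up stood beside them: macrophage-like barcodes held 94.2% and 92.9% of the Ifngr2 UMIs and 74.6% and 60.4% of the Ifngr1 UMIs in MC38 NT and MC38 RT. In Panc02-SIY NT and Panc02-SIY RT, CD8 T cell-like barcodes held 55.0% and 36.9% of the Ifngr1 UMIs and 58.7% and 42.5% of the Ifnar1 UMIs. The part of class make-up in the differences between tumors was not tested.

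A difference in the radiation effect between the tumors was called for no member (0 of 5, with 0.345% of all genes called by edgeR and 1472 genes at an unadjusted p under 0.05). The difference of effects was 1.83 for Ifng (95% interval 0.27 to 3.40, adjusted p = 0.38) and -0.65 for Ifngr2 (-1.01 to -0.29, adjusted p = 0.18). DESeq2 called Ifngr2 (adjusted p = 0.042) and no other member.

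Within classes, 15 member tests of radiation were possible in MC38, in NK cell-like, macrophage-like and non-immune-like barcodes, and 1 was called. The share of all genes called there was 0.262%, 12.4% and 0.0%. In Panc02-SIY 47 member tests over 10 classes gave 1 call, with 7.44% of genes called in macrophage-like, 4.61% in CD8 T cell-like, 1.08% in DC-like, 0.786% in NK cell-like, 0.276% in CD4 T cell-like, 0.267% in regulatory T cell-like, 0.205% in monocyte-like, 0.175% in non-immune-like, 0.0863% in neutrophil-like and 0.0% in B or plasma cell-like barcodes. Both calls were Ifnar1 in macrophage-like barcodes.

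Ifnar1 in macrophage-like barcodes was 96.7, 91.6, 106 and 126 CPM in MC38 NT and 149.7, 130.1, 125 and 123 in MC38 RT, with overlap. It was 39.7, 47.7, 48.1 and 54.7 CPM in Panc02-SIY NT and 62.7, 63.7, 68.7 and 70.2 in Panc02-SIY RT, without overlap. The rise was 0.42 in MC38 (SE 0.11, adjusted p = 0.016, edgeR) and 0.44 in Panc02-SIY (SE 0.13, adjusted p = 0.049). Neither call held under every setting. In MC38 the value was 0.24 (adjusted p = 0.16) with all barcodes left in every library, and the fold fell below 1.3 without MC38 NT replicate 1 or 2 or MC38 RT replicate 1 (0.36 to 0.37). In Panc02-SIY the adjusted p rose to between 0.11 and 0.14 without Panc02-SIY NT replicate 2 or 3 or Panc02-SIY RT replicate 3 or 4 (0.39 to 0.45). It was 0.146 in a fit of the 2 groups alone (0.44) and 0.147 with that filter on barcodes (0.35). The make-up of the class differed beside this result: the cluster with 61.0% of Panc02-SIY NT macrophage-like barcodes had 46.7% of those of Panc02-SIY RT. In that cluster alone Ifnar1 was 17.1 ± 11.7 CPM untreated and 21.7 ± 7.9 irradiated, and the fitted change was -0.12 (SE 0.51, adjusted p = 0.95), too imprecise to give a direction. A cluster with 1.26% and 6.13% of the class held 231 ± 92 CPM in Panc02-SIY RT. In MC38 the cluster with most macrophage-like barcodes gave 96.1 ± 15.2 and 119 ± 11.2 CPM (0.37, adjusted p = 0.026 by edgeR, fold just under the limit). The part of cluster make-up in the class values of Ifnar1 was not tested.

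Ifng in NK cell-like barcodes of MC38, with the values given above, averaged 169 ± 122 CPM untreated and 563 ± 249 irradiated, a change of 1.53 that did not pass (SE 0.48, 95% interval 0.58 to 2.48, adjusted p = 0.38 by edgeR). DESeq2 called it (1.65, adjusted p = 0.0092), and with all barcodes left in every library it was 1.10 (adjusted p = 0.53, edgeR). In the cluster with 72.2% of the MC38 NK cell-like barcodes the change was 0.53 (adjusted p = 0.93). In Panc02-SIY the change was 0.47 in NK cell-like (95% interval -0.23 to 1.18) and 0.25 in CD8 T cell-like barcodes (-0.73 to 1.22). Macrophage-like Ifng in MC38 was 0.548, 2.10, 0 and 1.42 CPM untreated and 4.68, 1.58, 5.72 and 5.67 irradiated, from 19 and 72 UMIs (2.37, adjusted p = 0.21). DESeq2 called this too (2.28, adjusted p = 0.093), as did the fit of the 2 MC38 groups alone (2.33, adjusted p = 0.011). So did edgeR with the highest doublet scores removed (1.94, adjusted p = 0.043) and in the largest macrophage-like cluster of MC38 (2.09, adjusted p = 0.035). Under the remaining settings it was not called.

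In NK cell-like and CD8 T cell-like barcodes of Panc02-SIY, neither Ifngr1 nor Ifnar1 passed the adjusted threshold in edgeR's fit of all groups. Their CPM, which lack the TMM scaling of the fit, were higher in every irradiated than in every untreated library. The share of all genes that separated in this way was not counted, so nothing is drawn from the separation. Ifngr1 in NK cell-like barcodes was 1063, 999, 936 and 1057 CPM untreated and 1376, 1449.7, 1504 and 1271 irradiated (0.41, SE 0.17, 95% interval 0.07 to 0.74, adjusted p = 0.41). The fit of these 2 groups alone called it (0.41, adjusted p = 0.041), as did DESeq2 (0.41, adjusted p = 0.075). In CD8 T cell-like barcodes Ifngr1 went from 464 ± 19.4 to 618 ± 40.7 CPM (0.30, adjusted p = 0.42). Ifnar1 was 99.04, 108, 109 and 109 CPM untreated and 131, 137, 133 and 134 irradiated in NK cell-like barcodes (0.27, adjusted p = 0.64), and 106 ± 4.04 and 138 ± 7.32 in CD8 T cell-like ones (0.27, adjusted p = 0.47). In the largest NK cell-like cluster of Panc02-SIY alone, Ifngr1 gave 0.25 and Ifnar1 0.22 (adjusted p = 0.29 and 0.60, edgeR). The largest CD8 T cell-like cluster gave 0.13 and 0.15 (adjusted p = 0.72 and 0.65). The part of cluster make-up in the class values was not tested.

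**Figure D5:**
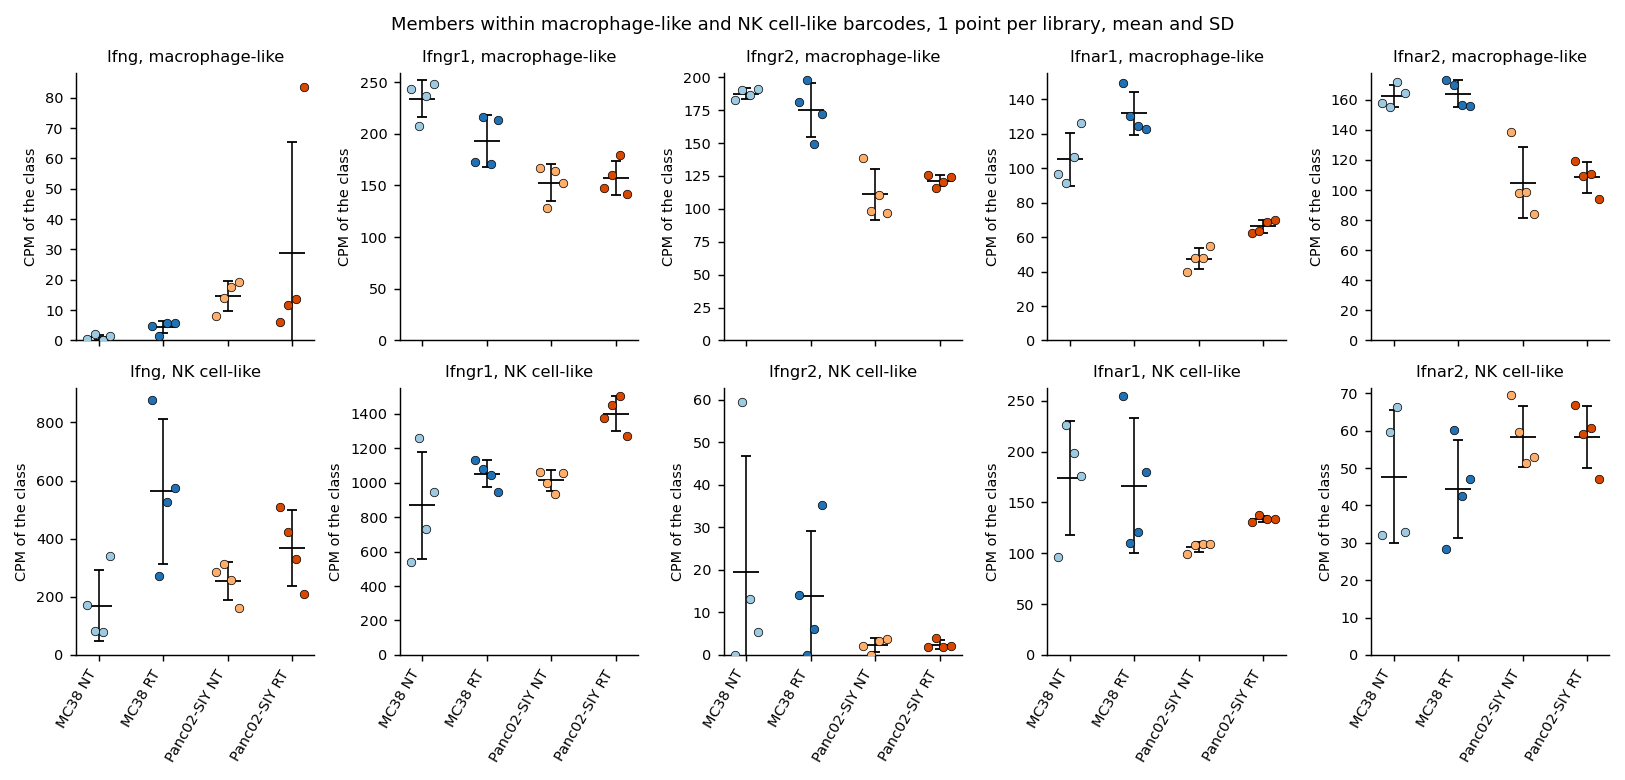
CPM of each gene within macrophage-like (upper row) and NK cell-like (lower row) barcodes, 1 point per library, with the mean and SD of the 4 libraries of a group. Ifnar1 in macrophage-like barcodes spans 39.7 to 54.7 CPM in Panc02-SIY NT and 62.7 to 70.2 in Panc02-SIY RT, and Ifngr1 in NK cell-like barcodes spans 936 to 1063 and 1271 to 1504 CPM in the same groups.

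Between the tumors, 5 of 20 member tests within classes were called for untreated and 8 of 15 for irradiated libraries. The share of all genes called was 9.89% and 14.2% in NK cell-like, 47.3% and 48.7% in macrophage-like and 32.0% and 22.6% in non-immune-like barcodes, and 8.98% in CD8 T cell-like barcodes, tested in untreated libraries only. In macrophage-like barcodes MC38 held more of all 4 receptor chains, by 0.78 and 0.55 for Ifngr1, 0.96 and 0.76 for Ifngr2, 1.22 and 1.20 for Ifnar1 and 0.86 and 0.85 for Ifnar2 in untreated and irradiated tumors. With all barcodes left in every library these were 0.77 and 0.57, 0.99 and 0.77, 1.25 and 1.04, and 0.78 and 0.67. Different clusters held most macrophage-like barcodes of the 2 tumors. The median macrophage-like barcode held 20280 and 17536 UMIs in MC38 NT and MC38 RT, against 1989.5 and 2226 in Panc02-SIY NT and Panc02-SIY RT. The part of clusters and of depth in these differences was not tested. Restricting to barcodes with at least 80% of their UMIs in the richest library ended the irradiated calls of Ifngr1 (0.34, adjusted p = 0.30), Ifngr2 (0.33, adjusted p = 0.23) and Ifnar2 (0.40, adjusted p = 0.16). MC38 held less Ifng in this class, by -3.94 and -2.76, and by -2.70 and -2.41 with all barcodes. With each barcode in 1 library, the MC38 values of this class rest on 19 untreated and 72 irradiated Ifng UMIs. Panc02-SIY RT replicate 4 held 83.5 CPM of Ifng there against 6.07 to 13.7 in the other 3, and after removal of the barcodes with the highest doublet scores the irradiated difference was -0.41 (adjusted p = 0.58). Ifng was not called between the tumors in CD8 T cell-like barcodes, nor in NK cell-like barcodes in either state. Its level in NK cell-like barcodes was 366 ± 278 CPM in MC38 and 312 ± 113 in Panc02-SIY, over 8 libraries each. In NK cell-like barcodes Ifngr2 was higher in irradiated MC38 than Panc02-SIY (2.84, SE 0.77, adjusted p = 0.0089), but not without MC38 RT replicate 4 (1.24, adjusted p = 0.67), and the MC38 value rests on 11 UMIs. This class too was made up differently: 1 cluster held 69.4% and 73.9% of it in MC38 NT and MC38 RT. The same cluster held 3.17% and 4.15% of it in Panc02-SIY NT and Panc02-SIY RT, and its part in the difference was not tested. The irradiated non-immune-like calls rest on 4 Ifng UMIs and 0 Ifnar2 UMIs in the 3 MC38 RT libraries tested, in a class where the median gene differed by -1.08. Ifng lost its call without MC38 RT replicate 4 (2.88, adjusted p = 0.41) and Ifnar2 with DESeq2 (-2.39, adjusted p = 0.17), so no direction is drawn from either. The difference of radiation effects within classes was called for 0 of 15 tests by edgeR, with 0.0% of genes called in NK cell-like, 0.108% in macrophage-like and 0.0% in non-immune-like barcodes.

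Genes around the members were followed in 6 lists of 70 genes. In all CD45+ cells of MC38 after radiation, 3 of 7 measured kinases and STATs of the receptors rose and none fell: Stat2 (0.71), Jak2, the kinase carried by IFNGR2 (0.67), and Irf9 (0.45). The median of that list was 0.41, against 0.04 for all genes. Of 8 negative regulators 2 rose, Socs1 (0.88) and Usp18 (0.74), both known to dampen interferon signaling. Of 11 interferon gamma response genes 3 rose, Cd274 (1.15), Gbp4 (1.001) and Irf1 (0.58), with a list median of 0.41. Of 12 transcription factors and receptors that drive Ifng 4 rose, among them Eomes, a T-box factor of NK and CD8 T cells (1.60), the interleukin-18 receptor gene Il18r1 (1.22) and Il15ra (0.63), with a median of 0.56. No gene of these 4 lists fell, and of the 7 measured cytokines that induce Ifng none was called. These counts stand beside 11.7% of all genes called, and NK cell-like barcodes were 8.35% of MC38 NT and 12.9% of MC38 RT barcodes, whose part in the values was not tested. With all barcodes left in every library 1 gene of each of the 4 lists was called (Stat2 0.49, Socs1 0.55, Cd274 0.70 and Il15ra 0.48), beside 3.99% of all genes, and Eomes (1.28, adjusted p = 0.17, edgeR), Il18r1 (0.90, adjusted p = 0.24) and Jak2 (0.46, adjusted p = 0.19) were not.

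In Panc02-SIY after radiation the same lists gave 2 of 7 kinases and STATs (Stat2 0.64, Jak2 0.51), 2 of 8 regulators (Usp18 0.95, Socs3 0.81) and 4 of 11 response genes (Cxcl10 1.41, Gbp2 1.07, Cd274 0.96, Ciita 0.81). The medians of these lists were 0.25, 0.32 and 0.81, against -0.03 for all genes. Of the genes that drive Ifng, Hlx (1.15) and Irf8 (0.50) were called, and of the cytokines that induce it, Il15 (0.79, from 8.60 ± 2.16 to 15.8 ± 6.71 CPM). These counts stand beside 14.7% of all genes called, and the part of the monocyte-like share of barcodes (2.56% untreated and 7.14% irradiated) in them was not tested. Ifng itself gave the change of -0.04 above.

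Within classes the pathway genes called with radiation are named beside the share of all genes called. The number of pathway genes tested in each class is not given, so no excess over that share is read from them. In macrophage-like barcodes of MC38, where 12.4% of all genes were called, Jak2 (0.86), Stat2 (0.72), Irf9 (0.48), Usp18 (0.80), Cd274 (1.302), H2-Aa (0.45) and H2-K1 (0.38) rose with radiation, along with Il12rb2, Il15ra and Hlx, and Ifnlr1, a lambda interferon receptor chain, fell (-2.71). When all barcodes stayed in every library, 3 pathway genes were called there, Jak2 (0.57), Stat2 (0.47) and Usp18 (0.54), beside 5.48% of all genes. In macrophage-like barcodes of Panc02-SIY (7.44% of all genes called) 3 genes were called: Stat2 (0.43), Runx3 (0.47) and Il10rb (0.44). No pathway gene was called with radiation in NK cell-like barcodes of either tumor, where 0.262% (MC38) and 0.786% (Panc02-SIY) of all genes were. In CD8 T cell-like barcodes of Panc02-SIY (4.61% of all genes called) only Il2, the T cell growth factor, was called (2.06, SE 0.41, adjusted p = 0.0081, edgeR).

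Between untreated tumors the genes that drive Ifng were mostly lower in MC38: 9 of 12 were lower and 1 higher in MC38, with a list median of -2.47 against -0.04 for all genes, of which 61.1% were called, including Il2rb (-3.61), Il18r1 (-3.52), Il18rap (-3.32) and Il12rb2 (-3.10). Tbx21, which encodes T-bet, was 6.55 ± 1.53 CPM in MC38 NT and 61.1 ± 11.3 in Panc02-SIY NT. Response genes split, with 5 higher in MC38 (among them Cxcl10, 2.96) and 2 lower (Gbp4, -1.57, and Irf1, -0.78), so that 7 of 11 were called. When all barcodes stayed in every library, 9 of the 12 genes that drive Ifng were lower and 1 was higher, with a median of -2.49. CD8 T cell-like barcodes were 4.16% of MC38 NT and 36.1% of Panc02-SIY NT barcodes, and their part in the values was not tested.

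The other interferons had few UMIs in these libraries. Ifnb1 had 11 UMIs in MC38 NT, 1 in MC38 RT, 0 in Panc02-SIY NT and 12 in Panc02-SIY RT, and among the interferon alpha genes 1 UMI of Ifna4 and 1 of Ifnab were counted, both in Panc02-SIY RT. For a gene with a count of 0 or 1 this limits only what droplets captured at 24 h. Il12b, a subunit of interleukin-12, which induces Ifng, stood at 1204 ± 694 CPM in mregDC-like (n = 2 libraries) and 60.6 ± 82.6 in DC-like barcodes of Panc02-SIY NT, against 2.08 ± 1.53 in macrophage-like and 0 in NK cell-like barcodes. Il15 was 22.3 ± 4.57 and 34.0 ± 17.9 CPM in monocyte-like barcodes of Panc02-SIY NT and Panc02-SIY RT, the class whose share of barcodes was higher in the latter.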

How the data were processed

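The deposited values are UMI counts per gene and cell barcode, 1 matrix per library; per the labels and the study's methods the authors made them from 10x 3' v3 libraries with bcl2fastq 2.20.0 and Cell Ranger 3.1.0 on mm10. A deposited matrix that aggregated the libraries was not used. The members and gene lists were chosen with earlier results of these data known. Each barcode was kept in the richest library of its tumor, and kept libraries held 147 to 4452 barcodes. Barcodes were clustered with scanpy 1.11.5 (2000 variable genes, 30 components, 20 neighbours, Leiden resolution 1, 28 clusters), with members and pathway genes left out. Scrublet's automatic threshold marked 70 barcodes (0.337%) and was taken not to have worked, so no doublets were removed in the main setting. An alternative removed the 5% with the highest scores per library (917 barcodes), and another dropped barcodes under 500 genes or over 10% mitochondrial UMIs (16349 left).

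Counts were summed per library, and per class with at least 10 barcodes in at least 3 libraries per group. They were tested with edgeR 4.0.16 (robust quasi-likelihood, TMM, 1 coefficient per group over all 4 groups, filterByExpr with a minimum count of 10, or 3 in classes, and a total of 15). Adjusted p-values in the text are Benjamini-Hochberg values over all genes tested, a call needed a fold over 1.3 besides an adjusted p under 0.1, and 95% intervals of log2 differences use the normal quantile. Where groups are said not to overlap, the share of all genes without overlap was not counted, so this describes the named gene alone. Classes were compared within libraries by an exact two-sided sign-flip test of log2(CPM + 10). The class pairs, the fits of single clusters, the pathway lists with all barcodes and the Ifng means without the highest library were chosen after seeing the data. On counts simulated for Panc02-SIY RT against Panc02-SIY NT over 12447 genes, the edgeR step recovered 75% of 2-fold and 94% of 4-fold changes, with 11 false calls. Each fold was given to 100 genes. For NK cell-like barcodes, over 9924 genes, it recovered 75% and 97%, with 41 false calls. That is a larger share of the calls than the threshold of 0.1 aims at. No change in MC38 was simulated. DESeq2 1.42.0 and the alternatives of the closing section were also run.

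The text names the 5 members in every comparison, up to 4 called genes per pathway list with the largest change, and per member the 3 genes with the highest correlation over class means of at least 5 CPM; other pathway genes named were chosen after their values were seen. The sources differ on whether a group came from 3 or 4 mice and do not tie libraries to mice, so p-values measure the spread between libraries, which may be technical. Intervals on shares cover counting error only.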

Additional observations from a re-analysis of the deposited data

Results flagged for a closer look

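In 9 of 145 groups of 4 libraries, 1 library lay further from its neighbour than Dixon's 95% critical value allows, relative to the range of the group; chance gives about 1 such group in 20. Ifng had 4 of them. In all CD45+ cells, Panc02-SIY NT replicate 4 held 169.8 CPM against 298 to 324 in the other 3 libraries. In CD4 T cell-like barcodes the same library held 744.8 CPM (410 UMIs in 83 barcodes) against 19.2 to 125. In DC-like barcodes, Panc02-SIY NT replicate 1 held 116.4 CPM against 7.63 to 17.3, from 27 UMIs in 20 barcodes. In macrophage-like barcodes, Panc02-SIY RT replicate 4 held 83.5 CPM against 6.07 to 13.7, and 2 barcodes held 50% or more of the Ifng UMIs of that class in the group.

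Ifngr2 stood apart in Panc02-SIY RT replicate 2, with 9.96 CPM in CD4 T cell-like barcodes (7 UMIs) against 27.4 to 30.7, and 3.94 CPM in NK cell-like barcodes (6 UMIs) against 1.80 to 2.00. Ifnar1 stood apart in all CD45+ cells of MC38 RT replicate 1, the library with 147 kept barcodes, at 153.0 CPM against 123 to 128. In NK cell-like barcodes of Panc02-SIY NT replicate 1 it was 99.04 CPM against 108 to 109. In non-immune-like barcodes of MC38 NT replicate 1 it was 36.5 CPM from 1 UMI, and the other libraries were at 0.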

How the results depend on the processing

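Of 129 alternatives to 12 results, besides those that left out a library, 101 stayed on the same side and 28 moved; the causes were not tested. In all CD45+ cells the 2 members called with radiation in MC38 became 0 with all barcodes in every library, with barcodes of at least 80% of UMIs in the richest library, without a filter on low counts and in a fit of the 2 groups, and 1 with DESeq2, with thinned libraries or at an adjusted p under 0.05. The 1 called in Panc02-SIY became 0 with the 80% rule. The difference of effects, with 0 called, gave 1 (Ifngr2) with all barcodes, with DESeq2 and with the replicate block. Within classes the 1 call in MC38 became 0 with all barcodes, the 80% rule or thinning, 2 in the fit of 2 groups or with doublets removed, and 3 with DESeq2. In the largest macrophage-like cluster of MC38, Ifnar1 fell under the fold limit (0.37) and Ifng was called (2.09). The 1 call in Panc02-SIY became 0 with the 80% rule, no filter, Leiden resolution 2 or the largest cluster of a class, and 2 with DESeq2. In that cluster Ifnar1 in macrophage-like barcodes gave -0.12 with an SE of 0.51, so no direction is drawn from it. In the fit of 2 groups and with the cell filter its count stayed 1, but Ifnar1 in macrophage-like barcodes lost its call (0.44 and 0.35) and Ifngr1 in NK cell-like barcodes gained one (0.41 and 0.40). Between untreated tumors 5 calls became 8 with DESeq2, and between irradiated tumors 8 became 5 with the 80% rule, the cell filter or 10 principal components. With all barcodes in every library, edgeR also called Ifngr2 in CD8 T cell-like barcodes between untreated tumors (1.87, adjusted p = 0.075). It called Ifngr1 in NK cell-like barcodes between irradiated tumors (-0.42, adjusted p = 0.041) in that setting too. The 23 of 55 neighbouring pairs of classes that differed became 13 of 45 with the cell filter and 18 of 90 with all barcodes in every library. The 69.1% of CD8 T cell-like barcodes of Panc02-SIY NT with an Ifng UMI became 27.9% when thinned. Leaving out 1 library gave 0 to 2 members called in MC38, 1 to 2 in Panc02-SIY, 4 to 5 and 5 between tumors and 0 to 1 for the difference of effects, and within classes 0 to 1, 0 to 1, 5 to 7, 5 to 8 and 0 to 1. Same-numbered libraries did not deviate together in every pair (correlations of 0.52, -0.17, 0.31 and 0.78 in Panc02-SIY and -0.06 to 0.14 in MC38), so the numbers were not taken to pair the libraries, although 3 of 4 Panc02-SIY pairs were above 0.1. With the replicate block 30 of 137 member tests were called against 28 without it, and 2 calls changed: Ifngr2 in the difference of effects (-0.66, adjusted p = 0.099, edgeR) and in NK cell-like barcodes between untreated tumors (2.36, adjusted p = 0.071). The few MC38 barcodes (2632) limit the precision of its lymphocyte values.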
